A study of Mus musculus with 47 samples.

Results

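The retinoblastoma and cell cycle inhibitor genes are 8 genes that hold back cell division, Rb1, Rbl1, Cdkn1a, Cdkn1b, Cdkn1c, Gadd45a, Gadd45b and Ccng2, of 8658 genes with a usable probe. They were taken by gene name, with all their probes, of which the array holds 14 among 25697. A probe counted as detected on an array at a detection p under 0.01, and probes detected on at least 4 of the 47 arrays were tested. Of the 14 probes 12 passed, and each of the 8 genes kept at least 1 probe. The other two, both of Cdkn1b, were detected on 0 of 47 arrays.

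The RNA was from progenitors of back muscle in E17.5 mouse embryos, sorted by flow cytometry as positive for Vcam-1 and negative for CD31, CD45 and Sca1, and was read on Illumina bead arrays. The 47 arrays lie on 7 chips. Both double mutants lack MyoD, the muscle-determining transcription factor, and carry 1 allele of Cre at Pax3 with a second, floxed change. The Rbpj/MyoD mutant is labelled Pax3cre/+;Rbpjflox/flox;MyoD-/- (7 arrays), and Rbpj is the DNA-binding protein of Notch signalling. The DnMaml/MyoD mutant is labelled Pax3cre/+;DnMamlflox/flox;MyoD-/- (8 arrays), and DnMaml is a truncated Mastermind protein that keeps the Notch complex from switching on its targets. The others are MyoD-/- (18 arrays), MyoD+/- (4 arrays) and wild type (10 arrays), whose labels name no Cre, so an effect of Pax3cre cannot be told apart from that of the floxed allele. All groups are labelled with the same mixed background of C57BL/6, 129/Sv and 129/Ola. No label says whether RNA of single or pooled embryos was used, so p-values measure the spread between these samples, which may be partly technical.

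Myod1 had 8.38 to 9.70 log2 intensity in Rbpj/MyoD samples, 8.95 to 9.48 in DnMaml/MyoD and 8.78 to 9.63 in MyoD-/-, against 10.71 to 10.96 in MyoD+/- and 10.76 to 11.59 in wild type. No sample of a genotype without MyoD overlapped those with it, although the probe stayed above background on all 47 arrays. The 3 probes of Rbpj were detected on 0 of 47 arrays and do not check that deletion. Of the progenitor markers Vcam1, Msc and Megf10 were detected on all 47 arrays, Pax7 and Myf5 on 2 each and Pax3 on 0. The leukocyte gene Ptprc was at background on all 47 arrays, while the fibroblast gene Pdgfra was detected on all 47. Of the markers on the array, 1 of 7 leukocyte, 8 of 8 fibroblast and 4 of 5 erythroid genes passed the filter. So did 3 of 6 Schwann cell and neural crest and 5 of 8 smooth muscle and pericyte genes. Of endothelial genes, Cdh5 was detected on 1 array and Pecam1, which encodes the CD31 used to exclude cells in the sort, on 9 and 6 arrays by its 2 probes. Of 8 endothelial markers on the array 5 were tested, and 2 of these were lower in MyoD-/- than in wild type and 1 higher in DnMaml/MyoD than in MyoD-/-. Arrays had 8761 to 11819 detected probes.

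In dividing cells the protein of Rb1 binds E2F transcription factors and keeps them from activating the genes of DNA synthesis, and cyclin-dependent kinases lift that block by phosphorylating it. Cdkn1a, Cdkn1b and Cdkn1c encode inhibitors of these kinases, and in mouse muscle the leaving of the cell cycle that precedes fusion into fibres depends on Rb1 together with Cdkn1a and Cdkn1c. Rbl1 encodes a relative of the Rb1 protein that is itself made from an E2F target gene. Gadd45a and Gadd45b are stress-induced genes that slow the cycle and feed stress kinases, and Ccng2 encodes an unusual cyclin that restrains division.

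Values below are log2 intensities after background correction and quantile normalisation. Changes are log2 differences from limma's fit of all 5 genotypes with chip as a term, with the standard error (SE), and were called, two-sided, where the p adjusted by Benjamini-Hochberg across the 12482 tested probes was under 0.05. A gene was counted by its brightest probe. Levels of different probes are not compared. In sorted bulk samples, fewer cells of a kind and less RNA per cell cannot be told apart.

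Counted by the brightest probe, 1 member gene rose (Cdkn1a) and 2 fell (Rb1 and Rbl1) of 8 in MyoD-/- relative to wild type, where limma called 21.3% of all probes (10.7% higher, 10.6% lower). In Rbpj/MyoD relative to MyoD-/-, 0 rose and 2 fell (Rb1 and Gadd45a), where 23.2% were called (11.3% higher, 11.9% lower). In DnMaml/MyoD relative to MyoD-/-, 2 rose (Rb1 and Gadd45b) and 1 fell (Ccng2), where 10.4% were called (5.7% higher, 4.68% lower). Rbpj/MyoD was higher than DnMaml/MyoD in 1 member (Ccng2) and lower in 1 (Rb1), where 6.17% were called (2.93% higher, 3.24% lower). Beside these background shares, counts of 0 to 3 among 8 genes are not a result about the members as a group, and each gene is described on its own.

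The member median was -0.15 in MyoD-/- relative to wild type, against -0.00 over all probes. It was 0.02 in Rbpj/MyoD and 0.05 in DnMaml/MyoD relative to MyoD-/-, against -0.03 and -0.02. Both comparisons with MyoD-/- share those samples. Scaling arrays to a common median in place of quantiles moved the share of called probes that were higher in MyoD-/- than in wild type to 68.1%, against 50.1%.

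**Figure D1:**
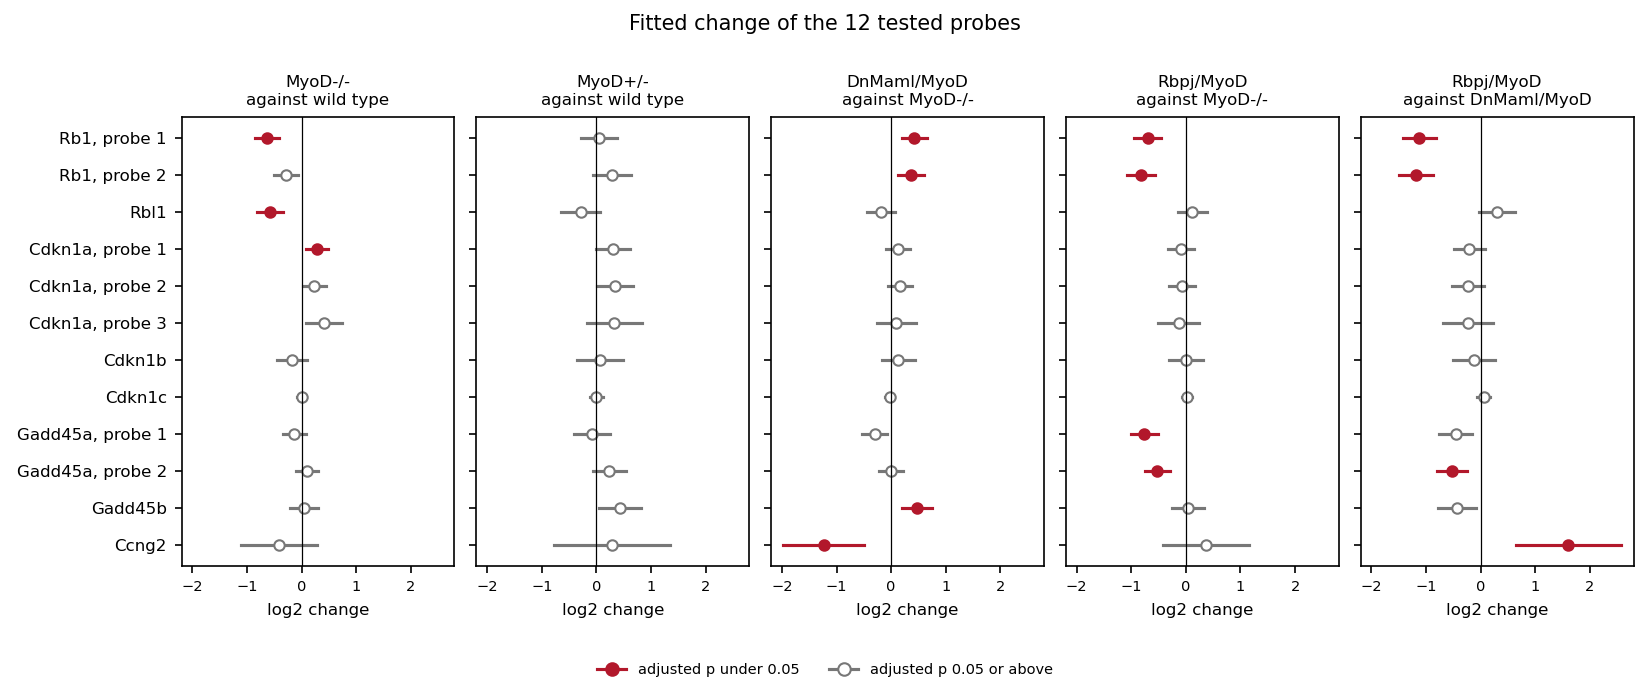
Fitted log2 change (horizontal) of the 12 tested member probes (vertical) in 5 comparisons, with 95% intervals; filled points passed an adjusted p under 0.05. Rb1 is low in MyoD-/- and Rbpj/MyoD and high in DnMaml/MyoD relative to their comparison groups.

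**Figure D2:**
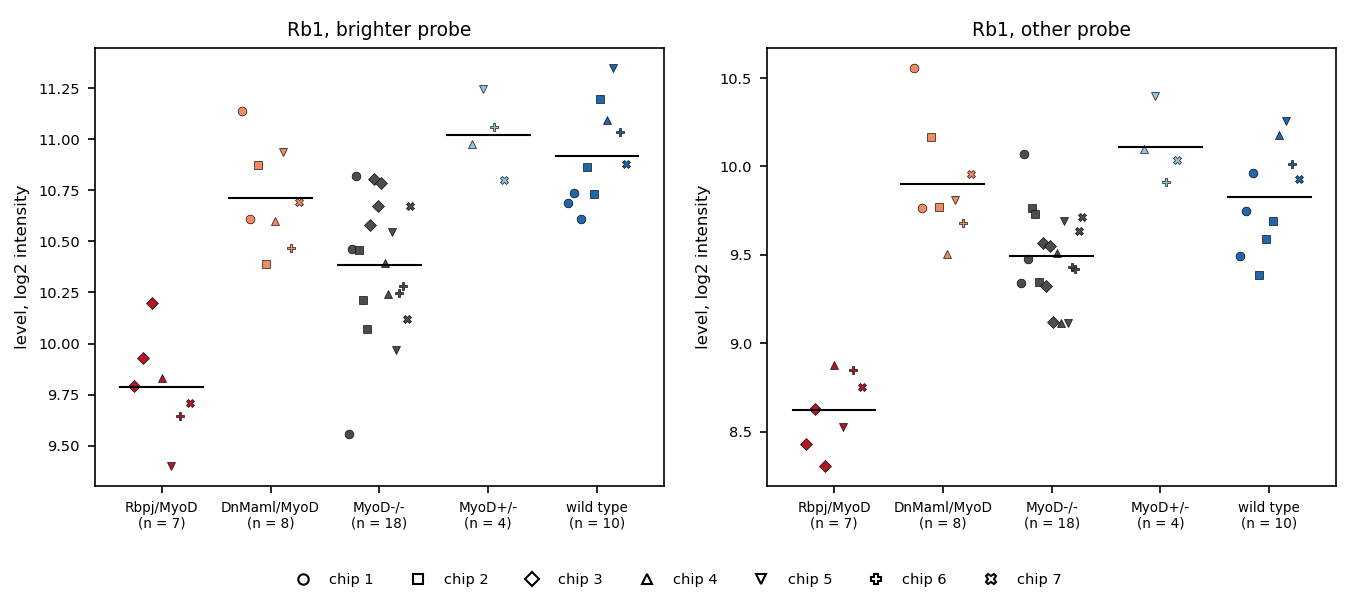
Level of Rb1 in each of the 47 samples by genotype, for its 2 probes, as log2 intensity. Each point is a sample, its shape gives the chip, and lines are group means; the 7 Rbpj/MyoD samples lie below all 8 DnMaml/MyoD samples on both probes.

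Rb1 was called in 4 of the 5 comparisons, more than any other member, and it moved in opposite directions in the double mutants relative to MyoD-/-. On the brighter probe the lowest, median and highest levels were 9.40, 9.79 and 10.20 in Rbpj/MyoD samples. They were 10.39, 10.65 and 11.14 in DnMaml/MyoD and 9.56, 10.43 and 10.82 in MyoD-/- samples. The 4 MyoD+/- samples had 10.98, 11.25, 11.06 and 10.80, and wild type samples had 10.61, 10.87 and 11.35. The Rbpj/MyoD samples were low throughout and overlapped neither DnMaml/MyoD, MyoD+/- nor wild type.

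Without MyoD, Rb1 fell by 0.64 ± 0.11 (SE, adjusted p = 2.14e-05) in MyoD-/- relative to wild type, and it was lower on each of the 6 chips that hold both genotypes, by differences of -1.09 to -0.40. The other probe of Rb1 read -0.28 ± 0.11 (adjusted p = 0.0653) and did not pass. That probe differed little between the genotypes on chips 1 and 2, at -0.10 and 0.06, and by -0.86 to -0.26 on chips 4 to 7. On chips 4 to 7 alone it was called, at -0.64 (adjusted p = 0.00151), as it was without chip 1 or 2 and without any 1 of wild type replicates 1 and 4, MyoD-/- replicate 2 and DnMaml/MyoD replicate 1, at -0.41 to -0.29.

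In DnMaml/MyoD relative to MyoD-/-, Rb1 rose by 0.43 ± 0.11 (SE, adjusted p = 0.0116) on the brighter probe and by 0.36 ± 0.12 (adjusted p = 0.0429) on the other. Both probes read higher on each of the 6 shared chips, from 0.20 to 0.68 on the brighter one. Against wild type the DnMaml/MyoD level differed by -0.21 (95% interval -0.47 to 0.04) and 0.08 (-0.18 to 0.34). On the brighter probe the rise did not pass with common-median scaling (0.34, adjusted p = 0.124), without a chip term (0.33, adjusted p = 0.104), without chip 5 (0.38, adjusted p = 0.0560) or on chips 4 to 7 (0.36, adjusted p = 0.0540). The other probe passed under 9 of 19 settings. It did not pass with common-median scaling (0.29, adjusted p = 0.352), no filter (0.36, adjusted p = 0.0725), on chips 4 to 7 (0.29, adjusted p = 0.115), or with 6 or 4 same-position pairs of chips 6 and 7 averaged (0.38, adjusted p = 0.0781 and 0.0681). Nor did it without chip 1, 2, 5, 6 or 7, or without any 1 of MyoD-/- replicates 1, 3, 6, 11, 12, 14, 15 and 17 and DnMaml/MyoD replicates 1, 3, 6 and 8, at 0.27 to 0.38 (adjusted p 0.0515 to 0.140).

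In Rbpj/MyoD relative to MyoD-/-, Rb1 fell by 0.70 ± 0.12 (SE, adjusted p = 2.58e-05) and 0.83 ± 0.13 (adjusted p = 2.93e-06) on its 2 probes, and was lower on each of the 5 shared chips on both. Set against each other, Rbpj/MyoD lay below DnMaml/MyoD by -1.13 ± 0.15 (adjusted p = 1.08e-06) and -1.19 ± 0.155 (adjusted p = 7.80e-07), a level 2.19-fold and 2.28-fold lower, on each of the 4 shared chips. This tests the difference between the double mutants itself. Against wild type, where 22.8% of probes were called (11.4% higher, 11.4% lower), the change in Rbpj/MyoD was -1.34 ± 0.15 (adjusted p = 1.56e-09) and -1.11 ± 0.15 (adjusted p = 2.49e-07).

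In chip-adjusted means of the brighter probe the genotypes had 9.65 in Rbpj/MyoD, 10.78 in DnMaml/MyoD, 10.36 in MyoD-/-, 11.04 in MyoD+/- and 10.996 in wild type. The order from low to high was Rbpj/MyoD, MyoD-/-, DnMaml/MyoD, wild type and MyoD+/-. Of the neighbours in that order, DnMaml/MyoD against wild type did not pass, at -0.21 ± 0.12 (adjusted p = 0.230), and was lower on 5 of 6 shared chips. Nor did MyoD+/- against wild type pass, at 0.05 ± 0.16 (adjusted p = 0.986). On the other probe DnMaml/MyoD (9.87) lay above wild type (9.79), with Rbpj/MyoD (8.68) and MyoD-/- (9.51) below both and MyoD+/- (10.09) highest.

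**Figure D3:**
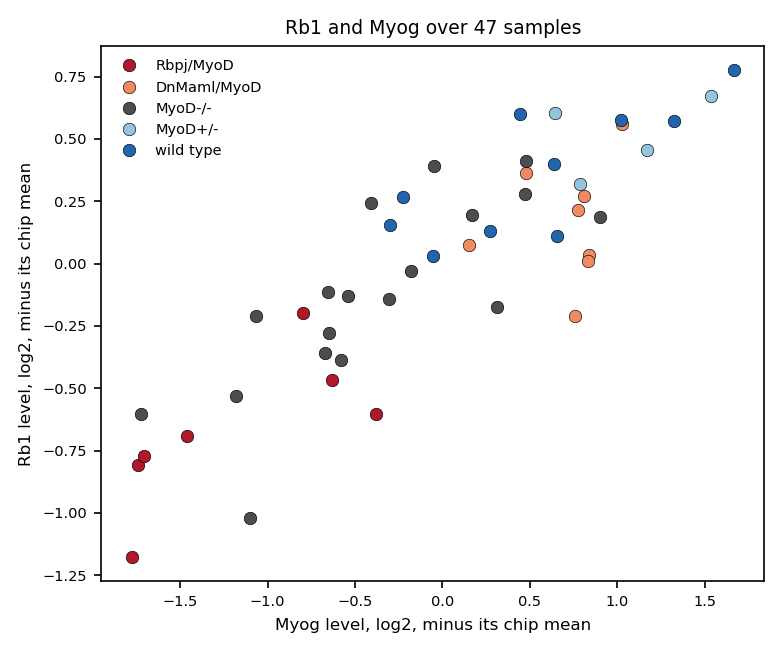
Level of Rb1 (vertical, log2) against Myog (horizontal, log2) in 47 samples after the mean of each chip was removed, with genotypes in colour. Every DnMaml/MyoD sample lies to the right of all Rbpj/MyoD samples.

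Over the 47 samples, with chip removed, the gene among 8657 others whose level ran most like that of Rb1 was Myog, the transcription factor of terminal muscle differentiation, with a Pearson r of 0.86. Lrrn1 (0.85) and Aatk (0.84) followed. The samples share genotypes and chips, so these values are descriptions. Myog had 7.64 to 8.11 in Rbpj/MyoD, 9.57 to 10.64 in DnMaml/MyoD and 7.64 to 10.12 in MyoD-/- samples, against 10.45 to 11.38 in MyoD+/- and 8.59 to 11.52 in wild type. Its changes were -1.14 ± 0.22 in Rbpj/MyoD and 1.35 ± 0.20 in DnMaml/MyoD relative to MyoD-/-, and -1.22 ± 0.19 in MyoD-/- relative to wild type. Among samples of 1 genotype the correlation of Rb1 and Myog was 0.72 over 7 Rbpj/MyoD, 0.20 over 8 DnMaml/MyoD, 0.77 over 18 MyoD-/- and 0.78 over 10 wild type samples. The 4 MyoD+/- samples are too few for one. Only chip means were removed, and chips hold different genotypes, so these values also carry the mix of genotypes on each chip. Rbpj/MyoD samples had Rb1 at -0.60 to -0.20 and Myog at -0.80 to -0.38 on chip 3, which otherwise holds only MyoD-/-. On chips 4 to 7 they had -1.18 to -0.69 and -1.78 to -1.46.

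Other genes of muscle differentiation and of other cell types also moved with these genotypes. Of 14 differentiation genes, 12 rose and 1 fell in DnMaml/MyoD relative to MyoD-/-, 2 rose and 5 fell in Rbpj/MyoD, and 1 rose and 9 fell in MyoD-/- relative to wild type. Their summed intensity was 39154 to 54648 in Rbpj/MyoD, 69076 to 80264 in DnMaml/MyoD, 38342 to 61980.2 in MyoD-/- and 34620.4 to 78763 in wild type samples. Of 10 tested progenitor markers, 1 rose and 9 fell in Rbpj/MyoD relative to MyoD-/-, with a median change of -0.78, and 1 rose and 5 fell in DnMaml/MyoD, with a median of -0.28. Their sums were 37867 to 52257.5 in Rbpj/MyoD and 40958 to 62133 in DnMaml/MyoD, against 55812.5 to 75262 in MyoD-/- samples, so Rbpj/MyoD and MyoD-/- did not overlap. Of 3 tested Schwann cell and neural crest markers, 2 rose in Rbpj/MyoD and 3 in DnMaml/MyoD relative to MyoD-/-, with sums of 3178 to 4287 in Rbpj/MyoD, 2501 to 3569 in DnMaml/MyoD and 992 to 1816 in MyoD-/-. Of 8 fibroblast markers, 7 rose and 0 fell in Rbpj/MyoD relative to MyoD-/-, with summed intensities of 64641 to 102368 against 33379 to 81753. All 4 tested erythroid genes fell there, with sums of 4909 to 23238 against 9794 to 52527. Their part in the change of Rb1 was not tested.

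Rbl1, the relative of Rb1, was lower in the 3 genotypes that lack MyoD than in wild type. It did not differ detectably between those 3, nor between any of them and MyoD+/-. Its levels were 8.35, 8.68 and 9.44 (lowest, median, highest) in Rbpj/MyoD, 8.12, 8.58 and 8.83 in DnMaml/MyoD and 8.22, 8.74 and 9.15 in MyoD-/- samples. MyoD+/- samples had 8.81, 8.79, 9.08 and 8.75, and wild type samples 8.67, 9.39 and 9.83. The high wild type values, 9.27 to 9.83, were those of chips 1 and 2, while the 4 wild type samples of chips 4 to 7 had 8.95, 8.71, 8.67 and 9.23 and overlapped the other genotypes.

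Rbl1 fell by 0.58 ± 0.12 (SE, adjusted p = 2.50e-04) in MyoD-/- relative to wild type and was lower on all 6 shared chips. The difference was -0.81 and -0.73 on chips 1 and 2, and -0.37, -0.17, -0.28 and -0.40 on chips 4 to 7. On chips 4 to 7 alone it was -0.31 and did not pass (adjusted p = 0.163). Relative to MyoD-/-, the change was 0.11 in Rbpj/MyoD (95% interval -0.15 to 0.38) and -0.19 in DnMaml/MyoD (-0.44 to 0.06). MyoD+/- differed from wild type by -0.28 (-0.64 to 0.08). DnMaml/MyoD and Rbpj/MyoD differed from wild type by -0.77 (adjusted p = 2.63e-05) and -0.47 (adjusted p = 0.0254), the latter lower on 3 of 4 shared chips. From MyoD+/-, MyoD-/- differed by -0.30 (adjusted p = 0.459), DnMaml/MyoD by -0.49 (adjusted p = 0.121) and Rbpj/MyoD by -0.19 (adjusted p = 0.608).

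Promoter sequences were at hand for 6 of the 8 member genes from RefSeq, build GRCm38.p6. The 250 bases before the annotated start are shown for Rbl1, both Gadd45 genes and Ccng2. Those of Cdkn1a and Cdkn1b are described without the sequence. Capitals mark matches on either strand to the E-box bound by MyoD and Myog (CANNTG), the Rbpj motif (TGGGAA), the FoxO motif (GTAAACA) and an E2F motif (TTTNNCGC).
Rbl1 (chr2:157204535-157204784, minus strand): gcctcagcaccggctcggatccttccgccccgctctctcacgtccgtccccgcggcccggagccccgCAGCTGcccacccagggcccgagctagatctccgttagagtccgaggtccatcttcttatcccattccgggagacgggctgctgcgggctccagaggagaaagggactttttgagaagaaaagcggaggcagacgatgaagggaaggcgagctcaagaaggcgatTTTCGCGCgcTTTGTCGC
Gadd45a (chr6:67037408-67037657, minus strand): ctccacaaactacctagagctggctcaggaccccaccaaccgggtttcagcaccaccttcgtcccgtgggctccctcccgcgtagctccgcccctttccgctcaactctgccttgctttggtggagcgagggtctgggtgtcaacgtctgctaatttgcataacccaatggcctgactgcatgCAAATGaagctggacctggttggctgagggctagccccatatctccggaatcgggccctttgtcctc
Gadd45b (chr10:80929841-80930090, plus strand): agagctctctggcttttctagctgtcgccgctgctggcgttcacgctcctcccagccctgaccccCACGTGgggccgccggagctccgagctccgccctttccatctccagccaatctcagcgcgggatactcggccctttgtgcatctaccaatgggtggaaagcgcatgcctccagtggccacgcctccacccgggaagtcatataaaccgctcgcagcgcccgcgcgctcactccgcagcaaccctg
Ccng2 (chr5:93267323-93267572, plus strand): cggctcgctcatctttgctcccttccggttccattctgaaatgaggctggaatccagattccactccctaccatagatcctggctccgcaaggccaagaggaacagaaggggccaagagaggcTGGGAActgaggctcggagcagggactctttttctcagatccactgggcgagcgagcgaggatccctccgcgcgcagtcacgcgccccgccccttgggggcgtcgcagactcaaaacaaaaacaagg

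No 2 of these matches overlap. The window of Rbl1 holds 2 matches to the E2F motif next to the start and 1 E-box, that of Gadd45a and of Gadd45b 1 E-box each, and that of Ccng2 1 match to the Rbpj motif. Cdkn1a has 1 window with 1 E-box and 1 match to the Rbpj motif, and another with 0 matches. The window of Cdkn1b holds 0 matches. Over 32851 promoter windows of the same length, 66.2% held an E-box, 21.6% the Rbpj motif, 3.17% the FoxO motif and 4.28% the E2F motif. A match describes these letters and is not a binding site.

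**Figure D4:**
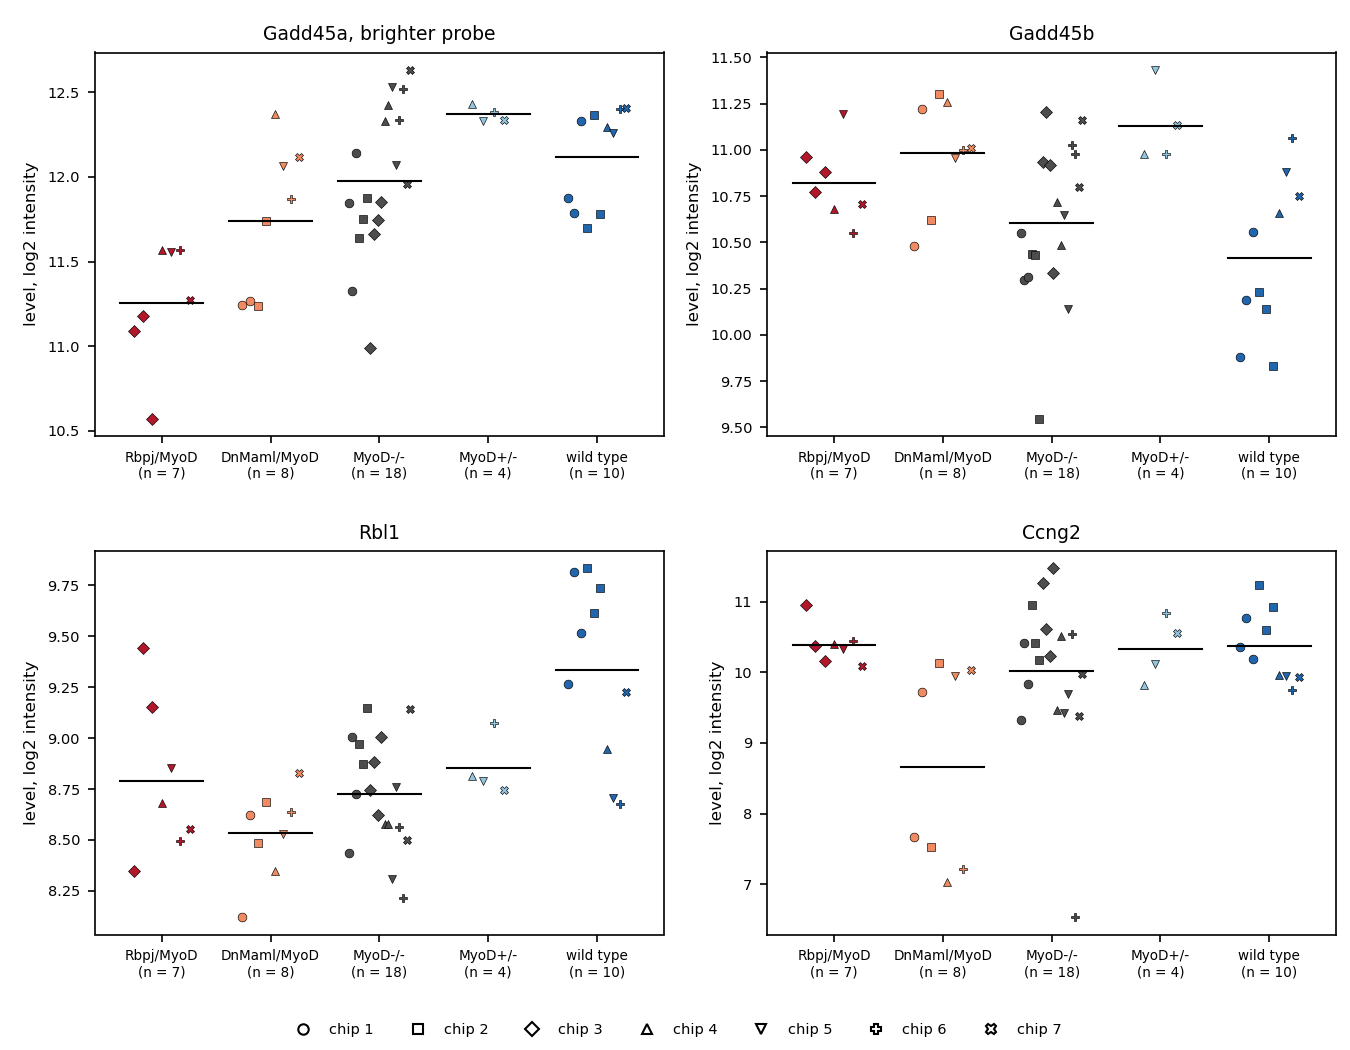
Levels of Gadd45a (brighter probe), Gadd45b, Rbl1 and Ccng2 in each of the 47 samples by genotype, as log2 intensity; shapes give the chip and lines the group means. Gadd45a is low in Rbpj/MyoD, and 4 of the 8 DnMaml/MyoD samples have Ccng2 between 7.03 and 7.66.

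Gadd45a was lower in Rbpj/MyoD than in MyoD-/- on both of its probes. On the brighter probe the lowest, median and highest levels were 10.57, 11.27 and 11.57 in Rbpj/MyoD, against 10.99, 11.92 and 12.63 in MyoD-/- samples. DnMaml/MyoD samples had 11.24, 11.81 and 12.37, MyoD+/- samples 12.43, 12.33, 12.38 and 12.34, and wild type samples 11.70, 12.28 and 12.40. On the brighter probe all 7 Rbpj/MyoD samples lay below every MyoD+/- and wild type sample, and the range overlapped that of MyoD-/- and DnMaml/MyoD. On the other probe 7 lay below every MyoD+/- sample and 0 below every wild type sample.

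Gadd45a fell by 0.76 ± 0.12 (SE, adjusted p = 5.57e-06) and 0.53 ± 0.11 (adjusted p = 5.18e-04) on its 2 probes in Rbpj/MyoD relative to MyoD-/-. It was lower on each of the 5 shared chips, from -1.02 to -0.61 on the brighter probe and from -0.98 to -0.13 on the other. In the same comparison 9 of 10 progenitor markers fell, 7 of 8 fibroblast markers rose and 4 of 4 erythroid genes fell, with the sums given for Rb1, and their part in the change of Gadd45a was not tested. Relative to DnMaml/MyoD the difference was -0.46 ± 0.15 (adjusted p = 0.0537) and -0.52 ± 0.14 (adjusted p = 0.0146), so 1 of the 2 probes passed, and both were lower on all 4 shared chips. The brighter probe passed under 6 of 20 other settings, and the other probe, which passed under 13 of 19, did not without Rbpj/MyoD replicate 4 (-0.47, adjusted p = 0.0550) or 7 (-0.43, adjusted p = 0.0914), nor without chip 4, 5 or 7. It also did not pass with the 6 same-position pairs of chips 6 and 7 averaged (-0.47, adjusted p = 0.0633), with common-median scaling (-0.54, adjusted p = 0.269) or without a chip term (-0.43, adjusted p = 0.0803). In DnMaml/MyoD relative to MyoD-/- the probes disagreed, at -0.30 (adjusted p = 0.0812) and -0.01 (adjusted p = 0.983). The brighter one was lower on all 6 shared chips, by differences of -0.55 to -0.01. Relative to wild type, DnMaml/MyoD read -0.43 (adjusted p = 0.00812) on the brighter probe, which passed, and 0.09 (adjusted p = 0.631) on the other. Both probes passed in Rbpj/MyoD relative to wild type, at -0.89 (adjusted p = 6.17e-06) and -0.43 (adjusted p = 0.0171). MyoD-/- and wild type were apart by -0.13 (95% interval -0.35 to 0.08) and 0.10 (-0.11 to 0.30).

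Gadd45b, by contrast, was higher in DnMaml/MyoD. Its levels were 10.48, 11.004 and 11.30 (lowest, median, highest) in DnMaml/MyoD, against 9.55, 10.60 and 11.20 in MyoD-/- samples, and the groups overlapped. Rbpj/MyoD samples had 10.55, 10.77 and 11.20, MyoD+/- samples 10.98, 11.43, 10.98 and 11.13, and wild type samples 9.83, 10.39 and 11.06. The rise in DnMaml/MyoD relative to MyoD-/- was 0.47 ± 0.13 (SE, adjusted p = 0.0158). It was present on chips 1, 2, 4 and 5, at 0.46, 0.82, 0.66 and 0.56, and near 0 on chips 6 and 7, at -0.00 and 0.03. On chips 4 to 7 alone it was 0.31 (adjusted p = 0.171), without chip 2 it was 0.36 (adjusted p = 0.102), without chip 4 it was 0.45 (adjusted p = 0.0602), and without DnMaml/MyoD replicate 4 it was 0.38 (adjusted p = 0.0553). With common-median scaling it was 0.39 (adjusted p = 0.286) and without a chip term 0.37 (adjusted p = 0.158). In Rbpj/MyoD relative to MyoD-/- the change was 0.04 (95% interval -0.25 to 0.32), and the double mutants differed by -0.44 ± 0.17, which did not pass (adjusted p = 0.143). Of 18 genes of the immediate early and dissociation response, 6 rose and 1 fell in DnMaml/MyoD and 6 rose and 0 fell in Rbpj/MyoD relative to MyoD-/-, with sums of 153500 to 226973 in Rbpj/MyoD, 133909 to 228945 in DnMaml/MyoD and 121079 to 209960 in MyoD-/-. Their part in the level of Gadd45b was not tested.

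Ccng2 split the DnMaml/MyoD samples into 2 sets. Replicates 1, 3, 5 and 7 had 7.66, 7.53, 7.03 and 7.21, while replicates 2, 4, 6 and 8 had 9.71, 10.12, 9.94 and 10.03. Nothing lay between. Of the 18 MyoD-/- samples, replicate 16 had 6.54, the lowest of all 47, and the other 17 had 9.32 to 11.47. Rbpj/MyoD samples had 10.09 to 10.95, MyoD+/- samples 9.81, 10.12, 10.84 and 10.55, and wild type samples 9.75 to 11.23. The probe was detected on all 47 arrays, and Ccng2 has no other probe to compare. With 1 probe, whose sequence was not used here, and a mixed strain background, whether the split is one of RNA level or of binding to the probe was not tested.

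As a group mean on this probe, Ccng2 fell by 1.24 ± 0.37 (SE, adjusted p = 0.0231) in DnMaml/MyoD relative to MyoD-/-. The chips did not share this fall: differences were -1.17, -1.69, -2.97 and -1.33 on chips 1, 2, 4 and 6, and 0.39 and 0.36 on chips 5 and 7. Without chip 1, 2 or 4 it did not pass, at -1.25 (adjusted p = 0.0624), -1.10 (0.104) and -0.97 (0.123), nor without any 1 of the 4 low replicates, at -1.10 to -0.99. On chips 4 to 7 alone it was -0.89 (adjusted p = 0.292). Rbpj/MyoD lay above DnMaml/MyoD by 1.60 ± 0.48 (adjusted p = 0.0332), with 3.37, 0.38, 3.24 and 0.05 on chips 4 to 7, and this difference rests on the same 4 samples. It did not pass without any 1 of them or of Rbpj/MyoD replicates 4, 5, 6 and 7, at 1.35 to 1.66 (adjusted p 0.0565 to 0.122), nor without chip 1, 2, 4 or 6. It also did not pass with common-median scaling (1.57, adjusted p = 0.0599), no filter (1.60, adjusted p = 0.0683) or on chips 4 to 7 (1.76, adjusted p = 0.116). In Rbpj/MyoD relative to MyoD-/- the change was 0.37 (95% interval -0.42 to 1.16), and in MyoD-/- relative to wild type -0.42 (-1.12 to 0.28).

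**Figure D5:**
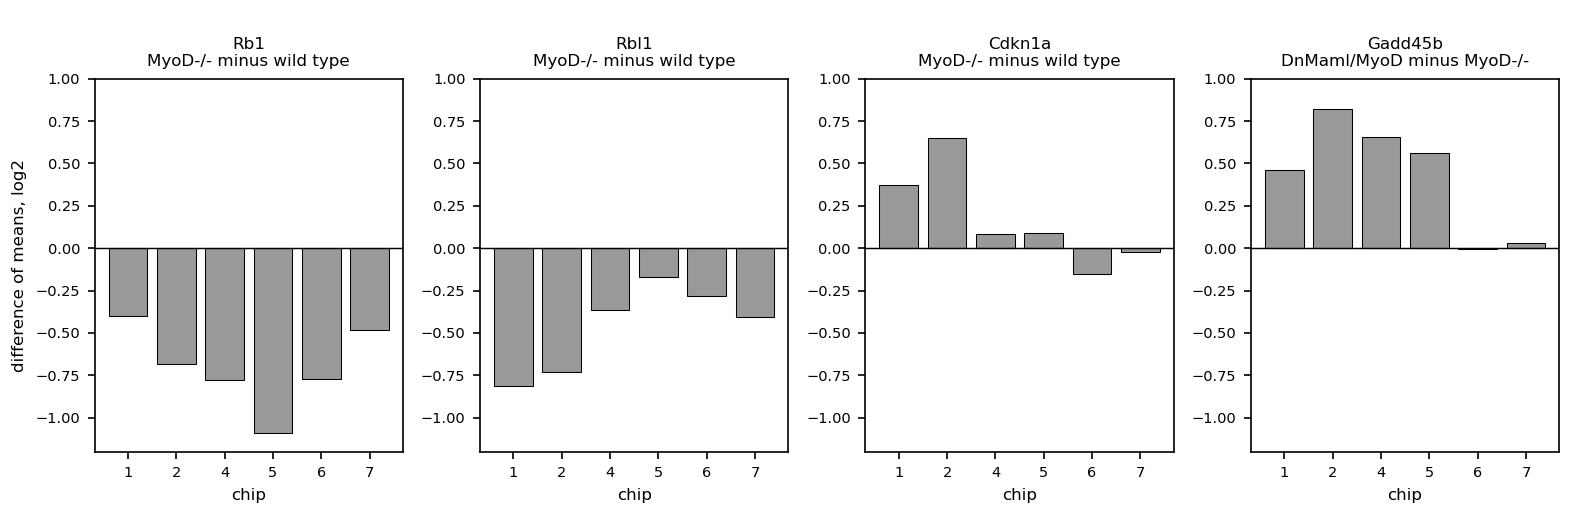
Difference of group means (log2, vertical) on each chip that holds both genotypes (horizontal), for Rb1, Rbl1 and Cdkn1a in MyoD-/- minus wild type and for Gadd45b in DnMaml/MyoD minus MyoD-/-. Rb1 and Rbl1 are lower on all 6 chips, and Cdkn1a is higher by over 0.3 on chips 1 and 2.

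Among the kinase inhibitor genes, calls were made for Cdkn1a and depended on the chips. On its brightest probe Cdkn1a had 12.73, 13.26 and 13.88 (lowest, median, highest) in Rbpj/MyoD, 12.82, 13.40 and 13.80 in DnMaml/MyoD and 12.95, 13.21 and 13.88 in MyoD-/- samples. It had 12.99, 13.19 and 13.24 in MyoD+/- and 12.32, 12.98 and 13.26 in wild type samples, with much overlap. On this probe it rose by 0.28 ± 0.10 (SE, adjusted p = 0.0410) in MyoD-/- relative to wild type, while its 2 other probes read 0.23 (adjusted p = 0.110) and 0.41 (adjusted p = 0.0704). The difference was 0.37 and 0.65 on chips 1 and 2 and 0.08, 0.09, -0.15 and -0.02 on chips 4 to 7, where the fit gave -0.000764 (adjusted p = 0.999). Without chip 1 it was 0.25 (adjusted p = 0.162) and without chip 2 it was 0.13 (adjusted p = 0.456), and neither passed. Nor did it pass with common-median scaling (0.42, adjusted p = 0.0660) or no filter (0.28, adjusted p = 0.0659), or without chip 4 (0.31, adjusted p = 0.0574) or 5 (0.31, adjusted p = 0.0575). It also did not pass without any 1 of wild type replicates 1, 3, 4, 5 and 6 and MyoD-/- replicates 1, 4, 5, 13, 15 and 17, at 0.21 to 0.28 (adjusted p 0.0555 to 0.112). In DnMaml/MyoD relative to wild type, where 22.3% of probes were called (10.9% higher, 11.4% lower), all 3 probes were called, at 0.41, 0.40 and 0.51. On the brightest probe the chips were split here too, with 0.53, 1.10 and 0.34 on chips 1, 2 and 4 and -0.02, -0.36 and -0.35 on chips 5 to 7, and each of the other probes was higher on 4 chips and lower on 2. No probe passed in either double mutant relative to MyoD-/-. In MyoD+/- relative to wild type the brightest probe read 0.31 (95% interval -0.01 to 0.62), which did not pass (adjusted p = 0.976). On that probe MyoD-/- differed from MyoD+/- by -0.02 (95% interval -0.31 to 0.27).

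Cdkn1b was read by 1 usable probe, detected on 45 of 47 arrays. Its levels were 7.60 to 9.24 in Rbpj/MyoD, 7.35 to 8.44 in DnMaml/MyoD, 7.15 to 8.91 in MyoD-/-, 8.10 to 8.34 in MyoD+/- and 7.20 to 8.57 in wild type samples. It passed in none of the comparisons, with a change of -0.17 in MyoD-/- relative to wild type (95% interval -0.45 to 0.10). That value hid a split: the difference was 0.16 and 0.45 on chips 1 and 2 and -0.47, -1.04, -0.33 and -0.47 on chips 4 to 7, where the fit gave -0.58 (adjusted p = 0.00397). Rbpj/MyoD was lower than wild type on all 4 shared chips, by differences of -0.96 to -0.59, where the fit over all chips gave -0.17 (adjusted p = 0.583). It was also lower than DnMaml/MyoD on all 4, at -0.63 to -0.35, where that fit gave -0.13 (adjusted p = 0.808). Relative to MyoD-/- it was higher on 2 chips and lower on 3.

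Cdkn1c stood at the top of the scale on every array. Its raw intensity was 48359 to 70149, and its probe ranked between 1 and 18 of 25697 on each array, whose brightest probe read 51414 to 71386. The lowest levels were 15.93 in Rbpj/MyoD, 15.76 in DnMaml/MyoD, 15.82 in MyoD-/-, 15.83 in MyoD+/- and 15.88 in wild type samples. All 5 genotypes shared the same highest level, since quantile normalisation gives every array the same set of values. The highest raw intensities were 69022 in Rbpj/MyoD, 69592 in DnMaml/MyoD, 70134 in MyoD-/-, 69710 in MyoD+/- and 70149 in wild type. Changes lay between -0.03 and 0.05 in the 5 comparisons. Whether its intensity could still rise with more RNA was not tested.

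In MyoD+/- relative to wild type limma called 0 of 8 members and 0% of all probes. At an unadjusted p under 0.05 were 535 of 12482 probes, or 4.29%, a share below that given by chance at this threshold. With 4 MyoD+/- samples the intervals were wide, for example -0.28 to 0.38 for Rb1 and 0.05 to 0.82 for Gadd45b, which did not pass (adjusted p = 0.976). In MyoD-/- relative to MyoD+/-, where 4.08% of probes were called (1.6% higher, 2.48% lower), Rb1 fell by 0.69 ± 0.15 (adjusted p = 0.00286) and 0.58 ± 0.16 (adjusted p = 0.0236) on its 2 probes, and 0 other members passed.

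Partners of the members are given for MyoD-/- relative to wild type, where 10.7% of all probes were higher and 10.6% lower. Of 12 tested genes of the Rb and E2F complexes, 0 rose and 2 fell: E2f2, an activating E2F, by 1.30 ± 0.11 (adjusted p = 4.41e-12) and E2f1 by 0.23 ± 0.08 (adjusted p = 0.0376). Of 8 cyclins and kinases of the first gap phase, 0 rose and 2 fell, Ccne1 by 0.86 ± 0.16 and Ccnd3 by 0.38 ± 0.10. Of 17 E2F target genes of DNA synthesis, 0 rose and 3 fell, Rfc4 by 0.41, Rrm2 by 0.43 and Cdc6 by 0.32. The medians of these 3 lists were 0.04, -0.05 and -0.08, and beside the share over all probes these counts of 2 or 3 genes are no result about the lists. Skp2, which marks the protein of Cdkn1b for destruction, fell by 0.64 ± 0.10 (adjusted p = 1.06e-05), and Rnf123, which also acts on it, rose by 0.43 ± 0.14, of 5 tested genes of that route. The 2 other tested inhibitors of the Cdkn2 family did not pass, with Cdkn2c at -0.29 (adjusted p = 0.0806).

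In the double mutants relative to MyoD-/-, 0 of the 17 E2F target genes passed. Over all probes 11.3% were higher and 11.9% lower in Rbpj/MyoD, and 5.7% and 4.68% in DnMaml/MyoD. Of the cyclins and kinases 3 rose and 1 fell in Rbpj/MyoD, with Ccnd1 at 0.75 ± 0.14, Ccnd2 at 0.75 ± 0.22 and Cdk6 at -0.62 ± 0.19, and 0 passed in DnMaml/MyoD. Of the Rb and E2F genes 1 fell in each, E2f6 by 0.38 in Rbpj/MyoD and E2f7 by 0.42 in DnMaml/MyoD. Of 5 tested antiproliferative genes 2 rose in Rbpj/MyoD, Ccng1 by 0.62 ± 0.13 and Tob1 by 0.53 ± 0.18, and 3 rose in DnMaml/MyoD, Tob1 by 0.79 ± 0.17, Ccng1 by 0.51 ± 0.12 and Tob2 by 0.40 ± 0.13.

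Genes that share regulators with Cdkn1a, Gadd45a and Ccng2 were counted beside the shares over all probes. These shares were 10.7% higher and 10.6% lower in MyoD-/- relative to wild type. Relative to MyoD-/- they were 11.3% and 11.9% in Rbpj/MyoD and 5.7% and 4.68% in DnMaml/MyoD. Whether the lists as sets depart from these shares was not tested. Of 16 tested genes of p53 and its targets, 5 rose and 1 fell in MyoD-/- relative to wild type, led by Trp53inp1 at 0.48 ± 0.11 and Sesn2 at 0.87 ± 0.23, with Plk2 at -0.32 ± 0.09. In Rbpj/MyoD relative to MyoD-/- 4 rose and 2 fell, with Plk3 at 0.79 ± 0.15, Ccng1 as above and Phlda3 at -0.56 ± 0.13, and in DnMaml/MyoD 2 rose and 0 fell. Of 13 FoxO factors and targets, 4 rose and 1 fell in MyoD-/- relative to wild type, with Fbxo32, a ubiquitin ligase of muscle wasting, at 1.49 ± 0.14, Gabarapl1 at 0.70 ± 0.10 and Pik3ip1 at 0.75 ± 0.13. In Rbpj/MyoD relative to MyoD-/- 1 rose and 5 fell, with Foxo1 at -0.91 ± 0.18, Txnip at -0.65 ± 0.17 and Pik3ip1 at -0.49 ± 0.15, and in DnMaml/MyoD 0 rose and 1 fell. Of 6 tested relatives and kinase partners of the Gadd45 genes, 2 rose in MyoD-/- relative to wild type, Mapk14 by 0.26 and Map2k3 by 0.43, and in Rbpj/MyoD relative to MyoD-/- Map2k3 fell by 0.61 ± 0.16 and Gadd45g rose by 0.29 ± 0.10.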

How the data were processed

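Muscle progenitor RNA of 5 genotypes was measured on 47 Illumina bead arrays. The deposited table holds, for every probe, a linear intensity that from its values had not been normalised, and a deposited detection p-value. The submitters' processing notes name GenomeStudio 2010.1 for the authors' export. The authors' processed intensity values were also deposited; from their values they look background-subtracted and quantile-normalised, and they were tried as an alternative, floored at 16. Probe names were matched to genes through the platform annotation and the RefSeq gene table: 23978 of 25697 probes have 1 symbol and 1719 none, and 718 of the tested probes have none.

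Background was corrected with the detection p-values (limma 3.58.1 in R 4.3.3, offset 16), followed by quantile normalisation and log2. The 12482 probes detected at p under 0.01 on at least 4 arrays were fitted with lmFit and eBayes, 5 genotypes and 7 chips as fixed terms, with 36 residual degrees of freedom. Arrays of chips with the same layout were to be averaged where at least 75% correlated best with their partner and the median correlation was above 0.3. For chips 6 and 7 this held for 8 of 12 arrays (median 0.49), so all 47 stayed separate samples; averaging them is among the alternatives. The fit was also run on simulated data whose noise was independent between arrays. Arrays with correlated deviations, as at some positions of chips 6 and 7, were not simulated. The number of arrays limits the precision. Named genes are the members with all probes, Myod1, up to 3 called genes with the lowest adjusted p in each pathway list and comparison, and the 3 genes most correlated with a member over samples. The members, gene lists, tests and alternatives were chosen with earlier results of these data known. Alternatives were the authors' values, a common-median scaling, an offset of 50, no filter and a filter at 12 arrays, other chip terms, chips or samples left out, 1 probe per gene, a replicate block and eBayes with trend and robust settings.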

Additional observations from a re-analysis of the deposited data

Results flagged for a closer look

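Rb1 responded differently in the double mutants, each relative to MyoD-/-: the effect in Rbpj/MyoD minus that in DnMaml/MyoD was -1.13 on the brighter probe and -1.19 on the other, and both passed limma's test of the difference. The same test passed for the second probe of Gadd45a (-0.52) and for Ccng2 (1.60), where 4 of 8 DnMaml/MyoD samples carry the difference.

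In 48 groups of 4 to 10 samples, 1 sample stood far from the rest in 3, and chance gives about 1 in 20. MyoD+/- replicate 4 had the third probe of Cdkn1a at 10.88, with the next sample at 10.41. DnMaml/MyoD replicate 6 had Cdkn1c at 15.76, with the next at 15.91, near the top of the scale. Rbpj/MyoD replicate 1 had Ccng2 at 10.95, with the next at 10.45.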

How the results depend on the processing

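The member counts in MyoD-/- relative to wild type (3), Rbpj/MyoD relative to MyoD-/- (2) and MyoD+/- relative to wild type (0) stayed within 1.5 times under all 20 alternatives. Relative to MyoD-/- the DnMaml/MyoD count of 3 became 1 with a common-median scaling, without a chip term, without chip 2 and without chip 4, and 0 on the chips with all 5 genotypes. Rbpj/MyoD relative to DnMaml/MyoD became 1, against 2, with a common-median scaling, no filter, and without chip 2, chip 4 or chip 6. Leaving out 1 sample at a time gave counts of 2 to 3, 2 to 4, 2 to 2, 0 to 0 and 1 to 3 in MyoD-/- relative to wild type, DnMaml/MyoD and Rbpj/MyoD relative to MyoD-/-, MyoD+/- relative to wild type and Rbpj/MyoD relative to DnMaml/MyoD. The brighter probes of Rb1 and Gadd45a in Rbpj/MyoD relative to MyoD-/-, and of Rb1 in MyoD-/- relative to wild type, were called under all 20 alternatives and all 47 leave-one-out fits, and Rbl1 in 19 of 20. Cdkn1a in MyoD-/- turned to -0.000764 on the chips with all 5 genotypes and was called in 13 of 20. The causes were not tested.

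The labels' replicate numbers do not pair the samples: deviations of the 63 pairs with the same number in different genotypes had a median correlation of -0.03. A replicate block as a random term gave counts of 3, 3, 2, 0 and 2 in the same order of comparisons, the same as without it. Every array as its own sample is the fit reported. Averaging chips 6 and 7, all 6 pairs or the 4 that correlate above 0.3, was chosen after seeing the data and left the 5 counts within 1.5 times, but ended the calls of the second probe of Rb1 in DnMaml/MyoD relative to MyoD-/- (both versions) and of Gadd45a in Rbpj/MyoD relative to DnMaml/MyoD (6 pairs). The number of all probes called ranged from 1382 to 2822 (2661 as reported) in MyoD-/- relative to wild type, 693 to 2282 (1296) in DnMaml/MyoD and 1938 to 3502 (2901) in Rbpj/MyoD relative to MyoD-/-, and 409 to 1077 (770) in Rbpj/MyoD relative to DnMaml/MyoD. Signal limits Cdkn1c, at the top of the scale, and the 2 probes of Cdkn1b at background.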

Other observations

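The genes whose levels ran most like those of the other members over the 47 samples, with chip removed, were Ttc3 for Rbl1 (Pearson r 0.82), Sqstm1 for Cdkn1a (0.77), Nsd1 for Cdkn1b (0.71), Ralgps2 for Gadd45a (0.82), Atp2a1 for Gadd45b (0.76) and Homer1 for Ccng2 (0.66). For Cdkn1c the highest was Aqp11 at 0.39. Between members the strongest were -0.57 for Rbl1 with Cdkn1a and 0.53 for Rbl1 with Ccng2. These are descriptions over samples that share genotypes and chips.

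Arrays at the same position of chips 6 and 7 had deviations that correlated at 0.55 (wild type), 0.43 and 0.63 (MyoD-/-) and 0.62 (DnMaml/MyoD), and at -0.14 (MyoD+/-) and 0.05 (Rbpj/MyoD). The DnMaml/MyoD pair, replicates 7 and 8, had Ccng2 at 7.21 and 10.03, and the second MyoD-/- pair, replicates 16 and 18, had 6.54 and 9.98. The labels do not say whether they share an RNA source.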
